A study of Mus musculus with 12 samples.

Results

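Genes of leukotriene, prostaglandin and thromboxane synthesis were examined in mouse megakaryocytes treated with dexamethasone, a synthetic glucocorticoid. The set holds 10 genes, named by symbol for their place in the pathway with earlier results of these data known: Pla2g4a, Alox5, Alox5ap, Ltc4s, Lta4h, Alox12, Ptgs1, Ptgs2, Tbxas1 and Hpgds. A probe set carrying its name alone was found for 9 of the 10, among 30142 named genes on the arrays, and each of the 9 had exactly 1 such probe set. Ptgs1, which encodes the constitutive cyclooxygenase of platelets, was not analysed here, because the annotation used names no probe set for it alone. A probe set labelled COX1 belongs to a mitochondrial gene that shares the alias and was not taken for it.

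These enzymes turn arachidonic acid, a fatty acid held in membrane phospholipids, into short-lived lipid signals called eicosanoids. Cytosolic phospholipase A2 frees the acid. The 5-lipoxygenase branch turns it into leukotriene A4, from which leukotriene B4 or the cysteinyl leukotriene C4 is made. The cyclooxygenase branch leads through prostaglandin H2 to thromboxane A2, prostaglandin D2 and related products, and 12-lipoxygenase makes 12-hydroxyeicosatetraenoic acid. Platelets, which megakaryocytes release, are known for thromboxane A2 and for the 12-lipoxygenase product. Glucocorticoids are known in many cell types to hold down arachidonate release and the inducible cyclooxygenase.

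The 12 arrays came from 6 cultures, each divided between 100 nM dexamethasone and its vehicle for 6 h. The cells were grown from bone marrow hematopoietic stem cells of male C57BL/6 mice, with 3 days of thrombopoietin at 100 ng per ml followed by a night in charcoal-stripped serum, and were purified at day 4 on an albumin gradient. All groups share this preparation, which models megakaryocytes matured outside the marrow; the sources used here do not give the age of the mice, the nature of the vehicle or whether each culture had its own mice. Culture numbers in this text are the replicate numbers of the labels. Each array gave 1 log2 value per gene, 24265 genes were tested, and r between arrays within a treatment was 0.990 to 0.994. The 13 megakaryocyte markers with a probe set all lay above the 95th percentile of the negative control probe sets on the 12 arrays, and 6 of 6 glucocorticoid response genes checked, among them Tsc22d3 and Fkbp5, were higher in dexamethasone.

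Of the 9 measured genes, 4 were higher in dexamethasone, 3 were lower and 2 did not pass the threshold, an adjusted p under 0.05 in the paired fit. The 4 that rose were Ltc4s, Alox5ap, Alox5 and Alox12, all of them lipoxygenase pathway genes. The 3 that fell were Pla2g4a, Hpgds and Tbxas1, the phospholipase and the terminal enzymes for prostaglandin D2 and thromboxane A2. Lta4h and Ptgs2 did not pass. The share past the threshold was 77.8% of the 9 genes and 12.0% of all genes tested, where 7.39% were higher and 4.56% lower. Among the 3367 tested genes above the 95th percentile of the negative controls on all arrays, 26.6% passed, and 5 of the 9 genes belong to that brighter class. The median change of the 9 genes was 0.19 on the log2 scale, against -0.01 for all genes tested. Because of how the genes were chosen, these shares are a description.

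**Figure D1:**
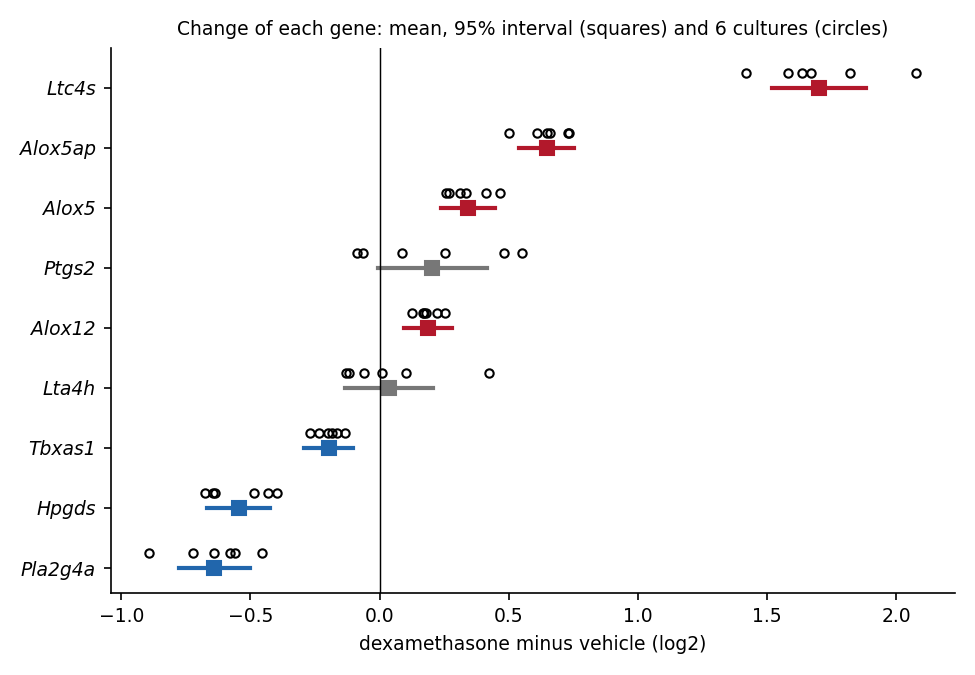
Dexamethasone minus vehicle on the log2 scale for the 9 measured genes. Squares and bars are the mean and its 95% interval from the fit, circles the 6 cultures, red and blue genes past the threshold upwards and downwards, and grey genes that did not pass; Ltc4s lies at 1.70 and Pla2g4a at -0.64.

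Pla2g4a encodes cytosolic phospholipase A2 alpha, the enzyme that cuts arachidonic acid out of membranes and so feeds all branches. Its log2 value was 14.20 at the lowest, 14.28 at the median and 14.31 at the highest of the 6 vehicle arrays, and 13.38, 13.67 and 13.75 in dexamethasone. The groups did not overlap, which held for 4 of the 9 genes and for 6.73% of all genes tested. The mean went from 14.28 ± 0.04 to 13.63 ± 0.14 (SD, n = 6), a 1.56-fold fall (change -0.64, SE 0.06, adjusted p = 0.00021). The fall was seen in 6 of 6 cultures, from -0.46 in culture 2 to -0.89 in culture 6. The vehicle arrays lay within 0.11 of each other, and the treated arrays spread wider, with culture 6 the lowest. The array measures RNA from whole cultures, in which fewer cells of a type and less RNA per cell cannot be told apart.

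Alox5 encodes 5-lipoxygenase, which makes leukotriene A4 from arachidonic acid, and Alox5ap encodes FLAP, the membrane protein that presents the acid to it. Alox5 values ran from 12.73 through a median of 13.00 to 13.18 in vehicle and from 13.14 through 13.36 to 13.44 in dexamethasone. These ranges touched only where the treated array of culture 2 fell below the highest vehicle array, and within each culture the treated array was higher by 0.26 to 0.47. The mean rise was 0.34 (SE 0.05, 1.27-fold, adjusted p = 0.0017). Alox5ap values ran from 16.52 through 16.60 to 16.68 in vehicle and from 17.18 through 17.25 to 17.38 in dexamethasone. The lowest treated array thus lay 0.50 log2 units above the highest vehicle array. The mean rise of Alox5ap was 0.65 (SE 0.05, 1.57-fold, adjusted p = 4.64e-05), between 0.50 and 0.73 in the 6 cultures. Its values lie in the upper part of a scale whose array maxima were 19.8 to 19.9.

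Ltc4s encodes leukotriene C4 synthase, which joins leukotriene A4 to glutathione and belongs to the same membrane protein family as FLAP. Human platelets are known to carry this activity and to use leukotriene A4 made by other cells. Values ran from 6.01 through 6.26 to 6.43 in vehicle and from 7.43 through 7.998 to 8.24 in dexamethasone. No treated array came near the vehicle range. The mean went from 6.25 ± 0.17 to 7.95 ± 0.30 (SD, n = 6), a change of 1.70 (SE 0.08, 3.25-fold, adjusted p = 3.22e-06). Culture 3 had the largest rise, 2.08, and culture 2 the smallest, 1.42.

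The vehicle level of Ltc4s was at the background of the array. It stood at the 46.2nd to 54.0th percentile of the negative control probe sets, below their median on 2 of 6 vehicle arrays, and at the 71.7th to 83.9th percentile on the treated arrays. On no array did it exceed their 95th percentile. Their median is called the control median in what follows. The 3.25-fold value is therefore a fold on the deposited scale, from a vehicle signal that could not be told from the negative controls. The plot of signal over the negative controls shows this beside the other genes.

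**Figure D2:**
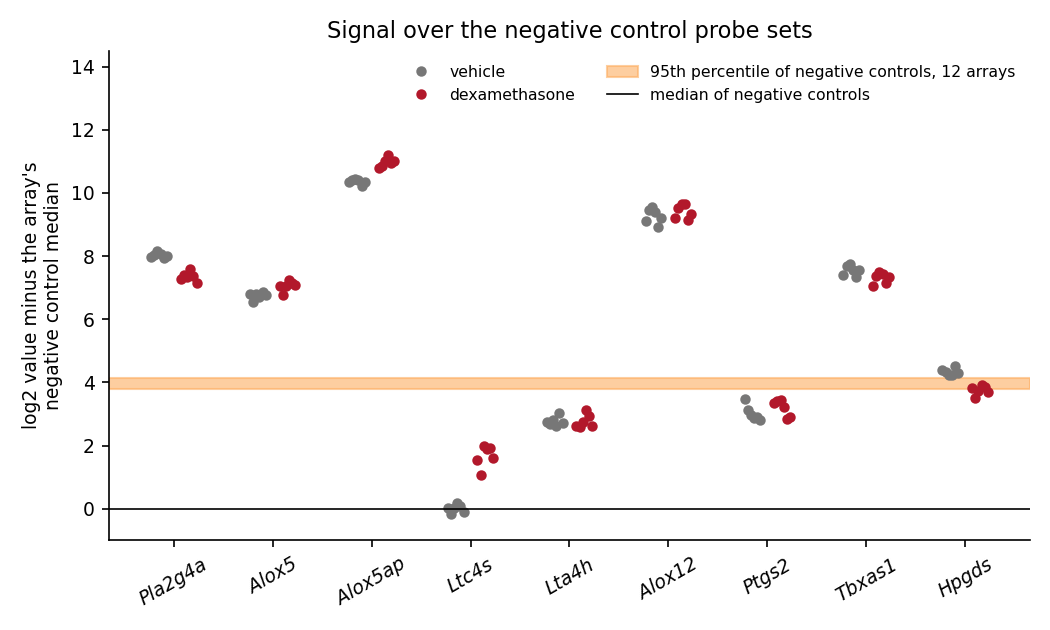
Each gene's log2 value minus that array's control median, 6 points per treatment; the orange band spans the 95th percentile of those controls over the 12 arrays. Ltc4s sits on the control median in vehicle and above it in dexamethasone, Lta4h and Ptgs2 lie between the median and the band, and Hpgds crosses the band downwards.

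The bases upstream of the start of Ltc4s, with the largest rise, of Pla2g4a, with the largest fall, and of Alox12, with a match to the element searched for, were read from RefSeq promoters of build GRCm38.p6, which list 9 of the 10 genes. Each run is the 250 bases before a listed start, the only one for Ltc4s and Alox12 and the outermost of 2 for Pla2g4a, 5′ to 3′ on the gene's strand, the minus strand for all 3 genes: chr11:50238533-50238782 for Ltc4s, chr1:149961291-149961540 for Pla2g4a and chr11:70255371-70255620 for Alox12. Capitals mark the 6-base glucocorticoid receptor element AGAACA or its other strand TGTTCT.
Ltc4s: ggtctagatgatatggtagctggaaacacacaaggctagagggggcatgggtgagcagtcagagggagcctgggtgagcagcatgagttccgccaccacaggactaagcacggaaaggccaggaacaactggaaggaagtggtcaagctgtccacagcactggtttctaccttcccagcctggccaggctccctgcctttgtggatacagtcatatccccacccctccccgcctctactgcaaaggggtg
Pla2g4a: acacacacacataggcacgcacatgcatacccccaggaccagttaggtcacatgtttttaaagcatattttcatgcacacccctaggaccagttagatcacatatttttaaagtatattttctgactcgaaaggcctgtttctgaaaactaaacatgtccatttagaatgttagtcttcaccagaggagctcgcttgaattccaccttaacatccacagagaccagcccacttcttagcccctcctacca
Alox12: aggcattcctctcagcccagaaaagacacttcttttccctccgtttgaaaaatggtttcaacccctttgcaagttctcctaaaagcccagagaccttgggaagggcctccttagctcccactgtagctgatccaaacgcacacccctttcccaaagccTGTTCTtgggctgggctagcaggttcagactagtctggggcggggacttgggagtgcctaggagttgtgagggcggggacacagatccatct

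The letters AGAACA were searched on both strands, as were the palindrome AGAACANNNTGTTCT, which contains them, and the GATA factor motif AGATAA. The listed starts of the 9 genes gave 10 windows, of which 3 held the 6-base element, as did 16.1% of all 32851 promoters of the table. They were those of Alox12, of the unmeasured Ptgs1 and of the other start of Pla2g4a (chr1:149922440-149922689, minus strand). The palindrome was in none of the 10 windows and in 0.00913% of all promoters. AGATAA was in none of the 10 windows and in 9.99% of all promoters. A window without these letters says nothing about binding elsewhere.

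Lta4h encodes leukotriene A4 hydrolase, which makes leukotriene B4 and so competes with Ltc4s for leukotriene A4. Its values ran from 8.86 through 8.98 to 9.35 in vehicle and from 8.84 through 8.999 to 9.28 in dexamethasone. The ranges coincided, with 3 cultures higher and 3 lower. The mean difference was 0.04 with a 95% interval of -0.13 to 0.21 and an adjusted p of 0.785, and culture 4, at 0.42, stood highest. The level lay above the control median and below their 95th percentile on all arrays.

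Alox12 encodes the platelet 12-lipoxygenase. Its values ran from 15.24 through 15.55 to 15.71 in vehicle and from 15.46 through 15.71 to 15.89 in dexamethasone, ranges that overlapped widely. Within cultures the treated array was higher in 6 of 6, by 0.12 to 0.25. The mean rise was 0.19 (SE 0.04, 1.14-fold, adjusted p = 0.0197). The SD of the 6 differences was 0.04 while that of the vehicle arrays was 0.18, and without the culture as replicate block the adjusted p was 0.249. Leaving out culture 2, 3, 4 or 5 also ended the call, with adjusted p from 0.0539 to 0.0569 and rises from 0.17 to 0.19.

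Ptgs2 encodes the inducible cyclooxygenase, a gene that glucocorticoids are known to restrain in inflamed tissue. Its values ran from 9.07 through 9.17 to 9.82 in vehicle and from 9.14 through 9.53 to 9.77 in dexamethasone. The ranges overlapped, and culture 1 alone gave the vehicle maximum, the next vehicle array being 9.29. The mean difference was 0.20 with a 95% interval of -0.01 to 0.41 and an adjusted p of 0.202. It was higher in 4 cultures, by 0.55 in culture 3 and 0.48 in culture 2, and lower by 0.09 or less in cultures 1 and 5. The interval leaves out a fall of more than 0.01 on this scale, at a level below the 95th percentile of the negative controls on all arrays.

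Tbxas1 encodes thromboxane A synthase, the platelet enzyme that turns prostaglandin H2 into the aggregating and vessel-constricting thromboxane A2. Its values ran from 13.65 through 13.80 to 13.90 in vehicle and from 13.46 through 13.58 to 13.73 in dexamethasone. The ranges overlapped, but the treated array was lower in 6 of 6 cultures, with differences from -0.27 to -0.13. The mean change was -0.20 (SE 0.04, a 1.15-fold fall, adjusted p = 0.016). The adjusted p was 0.0619 without the replicate block, 0.0546 after centring arrays on their medians and 0.0506 without culture 4.

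Hpgds encodes the hematopoietic prostaglandin D synthase, known from mast cells, megakaryocytes and some T cells. Its values ran from 10.39 through 10.54 to 10.83 in vehicle and from 9.88 through 10.02 to 10.23 in dexamethasone. The groups did not overlap. The mean went from 10.58 ± 0.16 to 10.04 ± 0.14 (SD, n = 6), a 1.46-fold fall (change -0.55, SE 0.05, adjusted p = 0.000265), between -0.68 and -0.40 in the 6 cultures. It lay above the 95th percentile of the negative controls on 6 of 6 vehicle arrays and on 1 of 6 treated arrays.

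**Figure D3:**
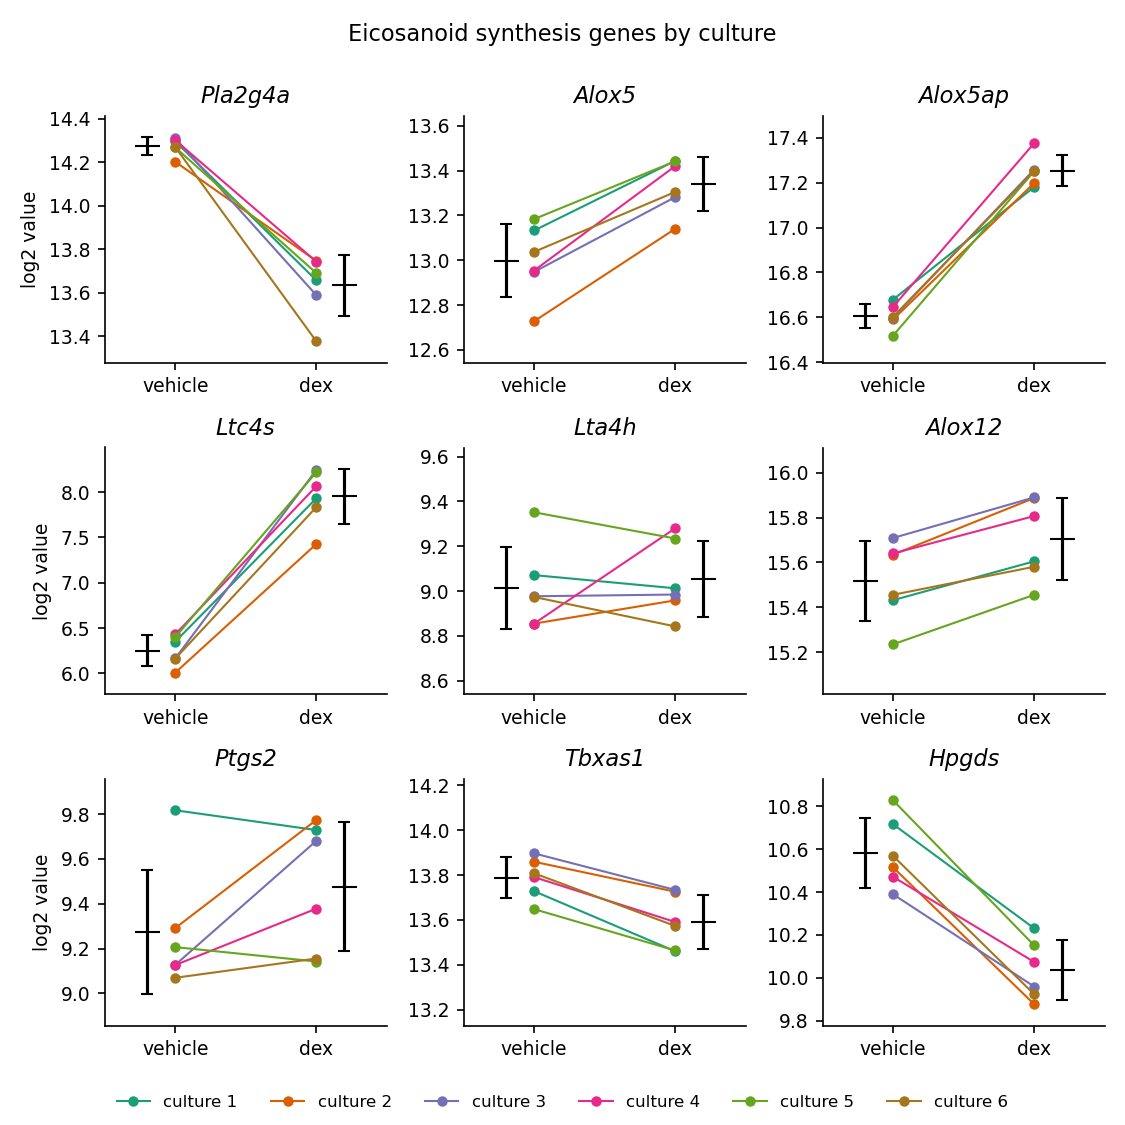
Log2 values of the 9 genes in vehicle and dexamethasone, with 1 line for each of the 6 cultures and the mean ± SD of each group in black; each panel has its own axis range. Lines run the same way in all 6 cultures for 7 genes and cross for Lta4h and Ptgs2. For Alox12 and Tbxas1 the range of the vehicle arrays is wider than the size of the mean change.

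In all, 7 of the 9 genes changed in the same direction in 6 of 6 cultures, as did 19.5% of all genes tested. The cultures also differed among themselves, in part alike in both treatments. In vehicle, cultures 5 and 1 had the lowest values of Alox12 (15.24 and 15.43) and Tbxas1 (13.65 and 13.73). The same cultures had the highest values of Hpgds (10.83 and 10.72), Alox5 (13.18 and 13.13) and Lta4h (9.35 and 9.07). In dexamethasone they again held the lowest Tbxas1 and the highest Hpgds and Alox5, while culture 5 had the lowest Alox12. Lta4h did not keep this order: in dexamethasone it was highest in culture 4, at 9.28, with culture 5 at 9.23 and culture 1 at 9.01. Culture 2 had the lowest Alox5 and Ltc4s in both treatments. These cultures were singled out after their values were seen.

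Several of these genes are also active in mast cells, neutrophils and macrophages, so markers of those cells were read beside them. Of 15 mast cell, basophil and eosinophil markers with a probe set, 9 lay below the control median on all arrays, the receptor chains Fcer1a and Ms4a2 among them. So did 15716 of the 30142 named genes. The summed level of the 15 markers (log2 of the sum) was 12.75 to 13.10 in vehicle and 12.95 to 13.25 in dexamethasone. It was higher in 6 of 6 cultures by 0.18 on average, and it was highest in cultures 5 and 1. It was set almost wholly by Slc18a2, which megakaryocytes also use to load dense granules. Of the 11 tested, 2 rose, Cpa3 by 0.64 and Slc18a2 by 0.17, and 1, Mcpt8, fell by 0.28, together 27.3% of them beside 12.0% of all genes tested. Hpgds fell while this sum rose, and Ltc4s and Alox5 rose with it; the part of these cells in the results was not tested.

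Neutrophil markers fell in sum in 6 of 6 cultures, from 11.84 to 14.55 in vehicle to 10.61 to 13.88 in dexamethasone, with 1 of 11 tested higher and 4 lower. That is 36.4% lower, beside 4.56% of all genes. The sum was lowest in culture 2 in both treatments and was set by S100a9 and S100a8. Alox5, Alox5ap and Ltc4s rose in 6 of 6 cultures while the sum fell in 6 of 6, and the part of neutrophils was not tested. Without culture 2 the changes passed the threshold for 6 of the 9 genes. That fit keeps the cultures with the higher sums and does not test that part either. The 12 monocyte and macrophage markers summed to 17.29 to 17.57 in vehicle and 17.42 to 17.61 in dexamethasone, higher in 5 of 6 cultures by 0.06 on average. By limma 0 of 12 were higher and 1, Ccr2, lower, which is 8.33% past the threshold beside 12.0% of all genes tested. Csf1r and C1qa reached an unadjusted p under 0.05 without passing, and 7 of the 12 lay below the control median on all arrays, Csf1r among them. So did 15716 of the 30142 named genes. Lyz2 set the monocyte and macrophage sum. The 13 megakaryocyte markers summed to 20.7 to 20.8 in vehicle and 20.7 to 20.9 in dexamethasone, a sum set by Pf4 and Ppbp. Of the 13, 3 rose, Gp9 by 0.44, Gata1 by 0.29 and Clec1b by 0.24, and 1, F2rl2, fell by 0.21. That is 30.8% past the threshold, beside 12.0% of all genes tested. The part of other cells in the results was not tested.

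Around the 9 genes, 81 other genes of the pathway were listed, 73 had a probe set of their own name and 63 were tested. Of the 73, 32 lay below the control median on all arrays, beside 15716 of the 30142 named genes. Of the 63, 11 were higher, 4 lower and 48 did not pass, which is 23.8% past the threshold beside 12.0% of all genes.

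Of 16 tested genes of arachidonate release, 2 rose, 0 fell and 14 did not pass; the share past the threshold, 12.5%, is near that of all genes. Both that rose encode secreted phospholipases A2, unlike the cytosolic Pla2g4a: Pla2g10 went from 8.27 ± 0.11 to 8.99 ± 0.12 (change 0.72, SE 0.06, adjusted p = 8.45e-05) and Pla2g12a from 9.57 ± 0.21 to 10.04 ± 0.16 (0.47, SE 0.06, adjusted p = 0.00144). Both lay above the control median on all arrays. Pla2g10 exceeded the 95th percentile of the controls on no array, and Pla2g12a on 1 treated array only. Of 10 genes that return arachidonate to phospholipids, 1 rose and 2 fell, 30% of them beside 12.0% of all genes tested. Acsl4, the acyl-CoA synthetase with a preference for arachidonate, fell by 0.37 (SE 0.05, adjusted p = 0.00168) from 12.46 ± 0.09, and the lysophospholipid acyltransferase Mboat2 rose by 0.43 (SE 0.07). Mboat2 lay below the control median on 3 of 6 vehicle arrays and above the 95th percentile of the controls on none of the 12. The call for Lpcat2, which fell by 0.24, concerns a gene below the control median on 4 of 6 vehicle and 6 of 6 treated arrays.

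Of 14 tested genes of other lipoxygenases and leukotriene handling, 4 rose and 1 fell, 35.7% of them beside 12.0% of all genes tested. Mgst3, a microsomal glutathione transferase of the family of Ltc4s and FLAP, rose most, from 7.05 ± 0.20 to 7.98 ± 0.28 (change 0.93, SE 0.07, adjusted p = 7.9e-05). Abcc1, which exports leukotriene C4 from cells, rose by 0.44 (SE 0.06, adjusted p = 0.00217), and Gpx4, which reduces lipid hydroperoxides, by 0.21 (SE 0.04, adjusted p = 0.0154). Mgst3, Abcc1 and Gpx4 lay above the control median on all arrays and above the 95th percentile of the controls on no array. Dpep2, a dipeptidase that trims leukotriene D4, passed at 0.23 with an adjusted p of 0.0481 while below the control median on all arrays. Abcc4, named after its values were seen as the only fall, was lower by 0.19 (adjusted p = 0.0449), a call lost whichever culture was left out (adjusted p from 0.0543 to 0.108). Leaving out cultures changed the count of 5 to 2 without culture 3 or 4 and to 3 without culture 1, 5 or 6.

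Of 12 tested genes of other prostanoid synthesis and clearance, 1 rose and 1 fell, 16.7% of them beside 12.0% of all genes tested. Hpgd, the 15-hydroxyprostaglandin dehydrogenase that inactivates prostaglandins, rose from 10.42 ± 0.13 to 10.85 ± 0.26 (change 0.43, SE 0.08, adjusted p = 0.00853). Ptges3, a co-chaperone of Hsp90 also named for prostaglandin E synthase activity, fell by 0.20 with an adjusted p of 0.0486. Ptges3 lost its call whichever culture was left out. The terminal synthases Ptges, Ptgds and Ptgis, named after their values were seen, lay below the control median on all 12 arrays.

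Of 11 tested eicosanoid receptors, 3 rose, 0 fell and 8 did not pass, which is 27.3% past the threshold beside 12.0% of all genes tested. Ltb4r1, the high-affinity receptor for leukotriene B4, rose by 0.90 (SE 0.11, adjusted p = 0.000869) from 5.70 ± 0.24, below the control median on 6 of 6 vehicle and 0 of 6 treated arrays. The prostaglandin E2 receptors Ptger3 and Ptger1 rose by 0.29 and 0.21 with adjusted p of 0.0389 and 0.0493. Ptger1 lost its call whichever culture was left out (adjusted p from 0.0623 to 0.126), and Ptger3 lost it without culture 1, 2, 4 or 5 (from 0.0919 to 0.108). The count of 3 became 1 without culture 2, 4 or 5. The thromboxane receptor Tbxa2r was higher in 6 of 6 cultures, by 0.12, without passing (adjusted p = 0.1004). Cysltr2, a receptor for cysteinyl leukotrienes, was 12.26 ± 0.09 and 12.21 ± 0.09, a difference of -0.05 with a 95% interval of -0.19 to 0.09.

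**Figure D4:**
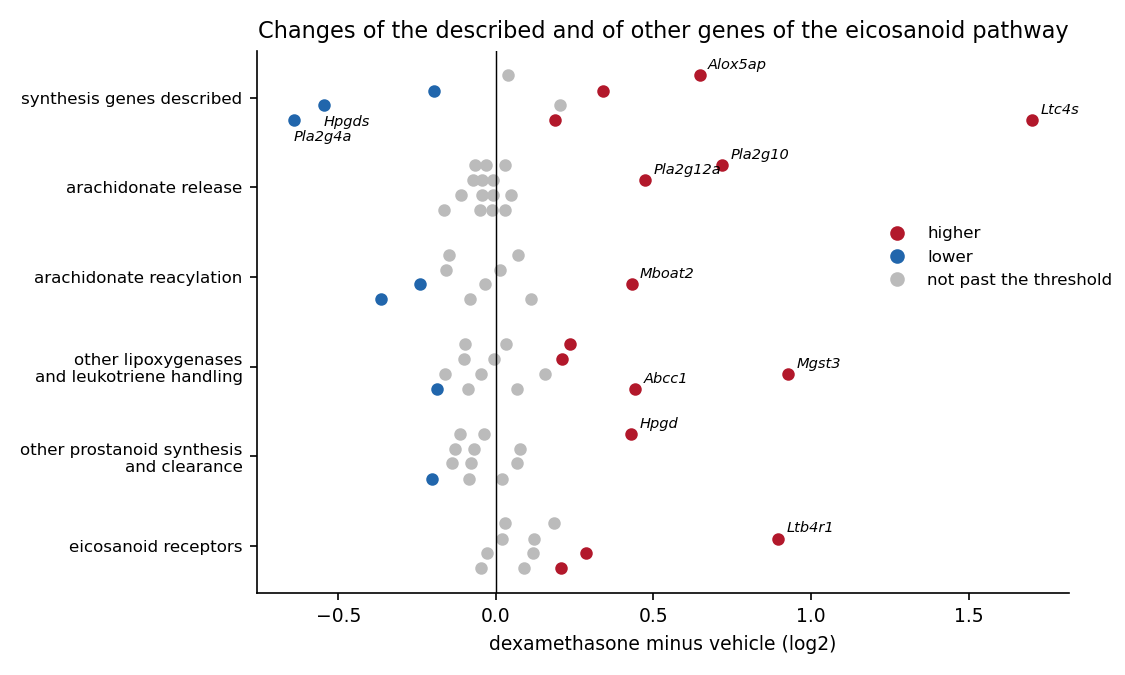
Dexamethasone minus vehicle on the log2 scale for the 9 described genes and the 63 other tested genes of the pathway, 1 point per gene by list; vertical offsets only separate points. Red and blue points passed the threshold upwards and downwards, and Mgst3 (0.93), Ltb4r1 (0.90) and Pla2g10 (0.72) lie farthest out among the other genes.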

How the data were processed

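The authors deposited a table of log2 values, 72688 probe sets by 12 arrays of 1 colour, made from 50 ng of RNA per the labels' protocols. The sources used here do not give the background correction, normalization or summarization. The scale was taken as log2 from the range of 2.07 to 19.93. Array medians lay between 5.57 and 5.67, so the values were taken as normalized. GEO's platform annotation gave 1 symbol to 30604 probe sets and several to 2146; 22818 gene numbers matched RefSeq (GRCm38.p6), which updated 827 symbols. Where a gene had several probe sets, that of highest mean was taken. Genes above the 25th percentile of their array on at least 6 of 12 arrays were tested.

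limma 3.58.1 (R 4.3.3; lmFit, eBayes, two-sided, Benjamini-Hochberg over all genes tested) was fitted with culture as a block, since the treatment protocol says that each culture was divided. Deviations of same-numbered arrays from their group means correlated at 0.0493 to 0.247, over 0.1 in 4 of 6 pairs, with a mean of 0.157 against -0.0316 for different numbers. The block takes out differences in level between cultures, so the p-values rest on how far the difference between treatments varied from culture to culture. They do not rest on a gene's own variation alone, since eBayes draws each gene's variance towards a value shared by all genes tested. Alox12 and Tbxas1, whose differences varied little, thus have a larger SE than their own 6 differences would give. The script was tested on simulated data. The 5222 negative controls, with array medians of 6.15 to 6.39 and 95th percentiles of 9.98 to 10.39, served as the background; the number of arrays limits the precision. Alternatives were quantile normalization, median centring, other filters and variance models, other block settings, the mean of a gene's probe sets, all probe sets fitted, and each culture left out.

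All measured genes of the set and the genes of the other pathway lists past the threshold are named, at most 4 a list by size. Outside this rule, Abcc4 and the genes Ptges, Ptgds, Ptgis, Tbxa2r and Cysltr2, which did not pass, are named too. The genes and lists were chosen with earlier results of these data known.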

Additional observations from a re-analysis of the deposited data

Results flagged for a closer look

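In 27 groups of 6 values (the 9 genes in vehicle, in dexamethasone and as differences), 1 held a value far from the others: Ptgs2 in vehicle culture 1, at 9.82, whose gap to the next array took up 0.704 of the group's range, above Dixon's limit at the 95% level. Chance gives about 1 such value in 20 groups. Without culture 1 the difference of Ptgs2 between treatments was 0.26 with an adjusted p of 0.13 in limma.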

How the results depend on the processing

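Over 15 alternatives, 124 of 135 recomputed changes of the 9 genes kept their side of the threshold, 11 lost the call and 0 reversed. Among the 15, the mean of a gene's probe sets leaves the values of these genes as they were, since each has 1 probe set. Pla2g4a, Alox5, Alox5ap, Ltc4s and Hpgds passed under 15 of 15, and Lta4h and Ptgs2 under none, where adjusted p ranged from 0.629 to 0.914 and from 0.130 to 0.441; the difference of Lta4h was -0.02 after quantile normalization and -0.04 without culture 4. Alox12 (0.19) lost its call without the replicate block (adjusted p = 0.249), with culture as a random block (0.151) and with all probe sets fitted (0.0983), and its rise was 0.17 to 0.20 with cultures left out. Tbxas1 (-0.20) lost its call without the replicate block (0.0619), with all probe sets fitted (0.0861) and after median centring (a change of -0.18, 0.0546), and its change was -0.21 to -0.18 with cultures left out. The block changed no other call among the 9 genes. Between 5 and 7 of the 9 genes passed under the 15 alternatives.

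Over all genes, 2900 passed, 1794 higher and 1106 lower. With cultures left out 1878 to 2331 passed, 1164 to 1520 higher and 712 to 853 lower. Lower genes numbered 1738 after quantile normalization, 726 after median centring and 639 with all probe sets fitted. Higher genes made up 61.9% of calls, and 44.9% after quantile normalization. The count of 5 leukotriene handling genes became 3 without the filter and 2 with all probe sets fitted, and 2 to 4 with cultures left out. The 2 prostanoid genes became 1 after median centring, without the filter, without the replicate block and with all probe sets fitted, and 1 with cultures left out. The 3 receptors became 1 after quantile normalization, without the filter and with all probe sets fitted, and 1 to 2 with cultures left out. The cause was not tested. Of the smaller calls in those lists, Gpx4 passed under 12 of 15 alternatives, Ptger3 under 8, Abcc4 under 6, Ptges3 under 5 and Ptger1 under 4, and Dpep2 under 6 of 14. Signals near the negative control median limit what could show for dim genes such as Ltc4s in vehicle.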

Other observations

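Genes whose 6 within-culture changes lay closest to those of Ltc4s and Pla2g4a were sought by root mean square distance over all genes tested. For Ltc4s they were Ddit4, which restrains mTOR signalling (distance 0.167, mean change 1.83, vehicle level 9.13), Abhd15 (0.208, 1.59) and Mob3c (0.214, 1.61). For Pla2g4a they were the transferrin receptor Tfrc (distance 0.0385, mean change -0.65, from -0.92 to -0.46 in the 6 cultures), the microtubule-binding Eml4 (0.0649, -0.67) and Pcyt1b, an enzyme of phosphatidylcholine synthesis (0.0961, -0.70). The vehicle values of Ltc4s could not be told from the negative controls, so the background bears on the size of its changes and on which genes lie nearest. These distances describe 6 cultures and were given no test.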
